A study of Mus musculus with 27 samples.

Results

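Keratins are the intermediate filament proteins of epithelial cells. A filament is built from acidic type I and basic type II keratins in equal parts, and the pair a cell makes follows its kind and its layer. Krt8 and Krt18 mark simple, single-layered epithelia, Krt5 and Krt14 the dividing basal layer of stratified epithelia, Krt4 and Krt13 the upper layers of the esophagus, and Krt1 and Krt10 the upper layers of the epidermis. Krt6, Krt16 and Krt17 belong to wounded or fast-growing epithelium and skin appendages, and the hair keratins build the hard fibre of hair, nail and some papillae of the tongue. The lining of the mouse esophagus starts as a simple columnar epithelium and becomes a keratinized, stratified squamous one.

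The keratin family was taken as every array probe whose gene name is Krt followed by digits alone or by digits and 1 letter, so that the keratin-associated proteins are not part of it. Of 41174 probes, 53 had such a name, and of 28508 gene names, 45 did. The gene A830036E02Rik is called Krt12 only in an older annotation and its probe was above background on no array, which leaves 44 keratin genes, 25 of type I and 19 of type II. By textbook role they are 5 simple keratins, 3 basal, 2 esophageal suprabasal, 4 epidermal suprabasal, 5 of stress and appendages, 6 of other stratified epithelia, 12 of hair, 5 of the inner root sheath of the hair follicle, and Krt42 and Krt222.

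Expression was measured on 27 arrays in 9 groups of 3 biological replicates. Wild type C57BL/6J mice gave whole esophagi at embryonic days E11.5 and E15.5, at birth (P0) and 7 days after it (P7), and esophageal epithelium at 8 weeks (adult). Nrf2-/- mice gave whole esophagi at P7 and epithelium at 8 weeks, and Keap1-/- and Nrf2-/-Keap1-/- mice gave whole esophagi at P7, with all mutants on a C57BL/6J background and lacking the genes in every cell. Nrf2 is the transcription factor of the antioxidant response and Keap1 the protein that keeps it low. Sample RNA carried Cy5 and a common reference RNA from 11 mouse cell lines carried Cy3, so a level here is the log2 ratio of Cy5 to Cy3 and is comparable only within a gene, not between genes. In whole tissue, fewer cells of a type and less RNA per cell cannot be told apart. Adults differ from P7 mice in tissue as well as in age, and tissue and age cannot be told apart.

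Each probe is a 60-base oligo. The probes below are shown because the results turn on their genes, and because keratins resemble each other enough for cross-hybridization to matter. They are written 5′ to 3′, and the capitals mark the longest run that the probe shares with a probe of another keratin. Positions are in the mm9 build, as the scanner files annotate them. The Krt19 probe starts at transcript base 1047 and lies at chr11:100002392-100002451 on the minus strand. The Krt7 probe shown is 1 of 2 for that gene, starts at base 1054 and lies at chr15:101253718-101253777 on the plus strand. The Krt13 probe shown, also 1 of 2, starts at base 279, at chr11:99982471-99982530 on the minus strand. The Krt4 probe starts at base 1187 and joins exons across an intron, between chr15:101750158-101750736 on the minus strand. The Krt33b probe shown starts at base 456 and also joins exons, between chr11:99887866-99888804 on the minus strand.
Krt19: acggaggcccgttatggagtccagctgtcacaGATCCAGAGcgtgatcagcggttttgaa
Krt7: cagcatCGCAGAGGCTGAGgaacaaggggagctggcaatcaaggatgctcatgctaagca
Krt13: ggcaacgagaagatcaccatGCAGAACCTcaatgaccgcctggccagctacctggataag
Krt4: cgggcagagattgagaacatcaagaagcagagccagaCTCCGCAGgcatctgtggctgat
Krt33b: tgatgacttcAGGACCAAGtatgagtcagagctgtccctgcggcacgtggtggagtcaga
The shared run was 9 bases with Krt87 for Krt19, 13 with Krt79 for Krt7, 9 with Krt6b for Krt13, 8 with Krt6b for Krt4 and 9 with Krt10 for Krt33b. Over all 53 probes the median longest run was 9 bases. The longest, 20 bases, was shared by the probes of the hair keratins Krt86 and Krt87, whose signals are therefore less certain. Probes were compared only with other keratin probes, which can sit elsewhere in their transcripts. Matches to the transcripts of other keratins were not tested, so a short run does not show that a probe is free of cross-hybridization.

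On single arrays, 58.9% to 69.3% of all Cy5 spots were well above background. Of the keratins, 15 were above background in Cy5 on every array, 11 on 8 arrays or fewer, and 4 on none, namely Krt26, Krt27, Krt42 and Krt86. A gene was tested where it was above background on at least 3 arrays of a fit, which 32 keratins were in all 3 fits and 8 in none. No keratin spot was saturated. The software had marked 245 of 1431 keratin values (17.1%) as spot outliers, that is 22.5% of the keratin values on the 20 arrays read with its older version and 1.62% of those on the 7 read with the newer one. These values were kept. A gene counts as called below when limma's p, adjusted over all genes tested by the Benjamini-Hochberg method, was 0.05 or lower.

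2 arrays went against their labels. The array labelled E11.5 replicate 3 was nearer to E15.5 replicates 2 and 3 than to E11.5 replicates 1 and 2 for 31 of 35 keratins, and the array labelled E15.5 replicate 1 was nearer to E11.5 replicates 1 and 2 for 30 of 35. Krt4 read -0.03, 0.06 and 5.17 in the E11.5 replicates 1 to 3 and -0.21, 5.28 and 5.09 in the E15.5 replicates. The arrays were kept under their labels, and the results that rest on them are given with and without them. Leaving them out follows from the keratin values themselves, so values without them are a description and no independent support.

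**Figure D1:**
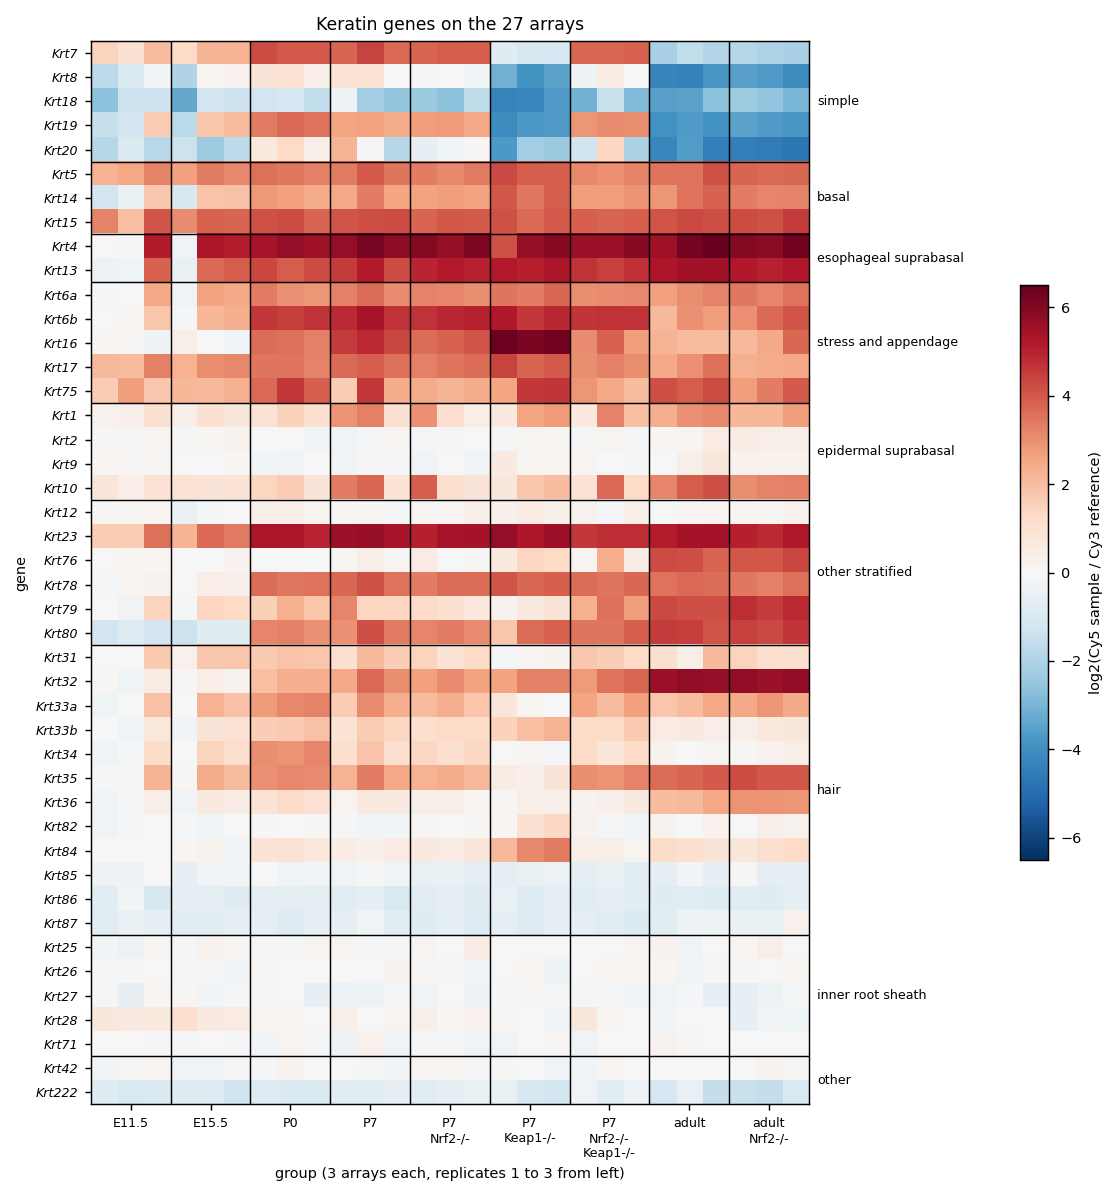
Log2 ratio of Cy5 sample to Cy3 reference (colour) for the 44 keratin genes (vertical axis, grouped by role) on the 27 arrays (horizontal axis, 9 groups of 3). The simple keratins are low in the adult and Keap1-/- arrays, as with Krt19 at -4.10, -3.71 and -3.69 in Keap1-/-, and the E11.5 replicate 3 and E15.5 replicate 1 columns resemble the other age.

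From E11.5 to P7 many keratins rose in wild type esophagus, with Krt80, the stress keratins Krt16 and Krt6b, and Krt78 changing most among those called. By role, 2 of 3 basal, 1 of 2 esophageal, 2 of 4 epidermal, 4 of 5 stress and appendage, 3 of 5 other stratified, 2 of 5 simple and 4 of 10 hair keratins tested were called higher. Krt4 (4.16, limma adjusted p = 0.0637), Krt79 (1.58, adjusted p = 0.064) and Krt15 (1.09, adjusted p = 0.0835) were not called. Across the 4 ages, 15 of 35 keratins tested differed by limma's F-test, where 30.1% of all 19915 genes did. From E11.5 to P7, 18 of 35 were called higher and 1 lower, with 16.8% of all genes called higher and 13.4% lower. The median difference over the 35 keratins was 1.58 log2 units against -0.01 over all genes. No slide held wild type arrays of both E11.5 and P7, of both E15.5 and P0, or of both P0 and P7. Age and slide therefore cannot be told apart in these comparisons.

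Between E11.5 and E15.5 as labelled, limma called 0 keratins, and 0 had an unadjusted p under 0.05. Of all genes tested, 0% were called. Without the 2 arrays that go against their labels, which leaves 2 arrays at each of these ages, 18 of 34 keratins were called higher and 0 lower, where 8.95% of all genes were higher and 4.84% lower. The esophageal pair then showed the largest differences. Krt4 rose by 5.17 log2 units (SE 0.18, limma adjusted p = 2.11e-06) and its partner Krt13 by 4.11 (SE 0.26, adjusted p = 2.49e-05). Krt13 read -0.36, -0.29 and 3.84 at E11.5 and -0.46, 3.66 and 3.92 at E15.5. On the slide that held E15.5 replicate 1 beside the 3 E11.5 arrays, the difference was -1.94 for Krt4 and -1.53 for Krt13, which uses the same values that set these arrays apart and adds nothing to them.

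The basal keratins differed less between these ages. Krt14, the type I keratin of basal cells, read -1.17, -0.45 and 1.77 at E11.5 and -1.04, 1.85 and 1.91 at E15.5. Its partner Krt5 read 2.27, 2.51 and 3.21 and then 2.66, 3.38 and 3.14. Without the 2 arrays Krt14 rose by 2.69 (SE 0.31, limma adjusted p = 0.000562) and Krt5 by 0.87 (SE 0.21, adjusted p = 0.0258), so the partners rose by different amounts. The basal and stem cell keratin Krt15 rose by 1.23 (adjusted p = 0.0413). In the same comparison the simple keratins Krt19, Krt8 and Krt7 were also called higher, by 3.30, 1.56 and 1.01, and so were the hair keratins Krt35, Krt33a, Krt31, Krt34, Krt33b and Krt36, by 0.70 to 2.25.

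From E15.5 to P0, 11 of 35 keratins were called higher, where 11.2% of all genes were, and Krt28 of the inner root sheath was the 1 called lower, where 8.44% were. Krt80, a type II keratin of stratified epithelia, read -1.41, -0.79 and -0.79 at E15.5 and 3.16, 3.30 and 2.98 at P0. It rose by 4.15 log2 units, or 17.7-fold (SE 0.28, limma adjusted p = 8.98e-06). Krt16, the type I keratin of wounded and fast-growing epithelium, read 0.38, -0.02 and -0.16 and then 3.65, 3.59 and 3.26. Both genes had separate groups with a gap far wider than either group's spread. Krt16 rose 10.8-fold (3.43, SE 0.20, adjusted p = 2.42e-06) and Krt78, another keratin of stratified epithelia, 9.70-fold (3.28, SE 0.18, adjusted p = 1.67e-06).

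Krt6b, which is induced by wounding, read -0.09, 2.17 and 2.35 at E15.5 and 4.60, 4.47 and 4.72 at P0, and rose by 3.12 (SE 0.62, limma adjusted p = 0.00665). The simple keratin Krt7 rose by 2.15 (adjusted p = 0.00129), Krt20 of intestine and urothelium by 2.57 (adjusted p = 0.0442), and Krt23 by 2.10 (adjusted p = 0.0149). Among hair keratins, Krt32 was above background on no E15.5 array and was at least 3.65-fold higher at P0, where its levels were 1.98, 2.35 and 2.35. Krt34 rose by 2.18, Krt33b by 1.19 and Krt84 by 0.73. The bound for Krt32 sets the P0 mean of Cy5 against a level taken on each E15.5 array. That level is the higher of the gene's own signal and the lowest signal well above background. Such a bound rests on Cy5 signal alone, so it can lie close to the fold from the ratios or slightly above it.

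The esophageal pair, the 3 basal keratins and the 4 epidermal suprabasal keratins gave no call from E15.5 to P0 as labelled. Krt4 read 5.34, 5.70 and 5.51 at P0, which lies next to the levels of the E15.5 replicates 2 and 3. Without the 2 arrays 11 keratins were again called higher and 1 lower, where 10.6% and 8.9% of all genes were. Krt19 and Krt32 were among these with 1.59 (SE 0.13) and 1.88 (SE 0.30).

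**Figure D2:**
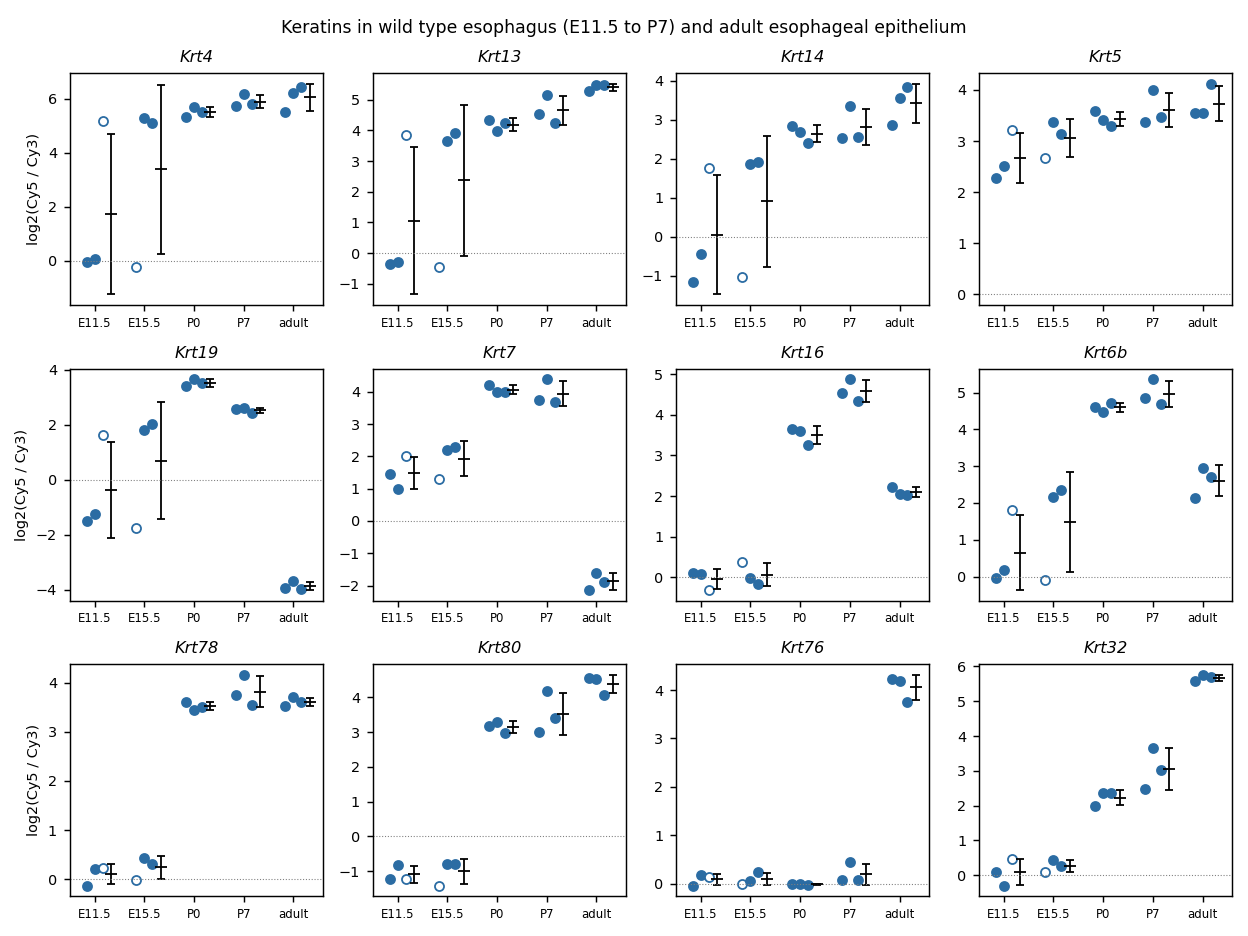
Log2 ratio of Cy5 to Cy3 (vertical axes) of 12 keratins in wild type mice at 5 ages (horizontal axes); points are arrays, black bars the mean and SD of 3, and open circles E11.5 replicate 3 and E15.5 replicate 1. Among filled points Krt4 and Krt13 are high from E15.5 on, Krt16, Krt78 and Krt80 are high from P0 on, and Krt76 is near 0 until P7 and between 3.76 and 4.23 in adults.

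From P0 to P7 the family changed little. Krt16 was the 1 keratin of 35 called higher, where 1.49% of all genes were, and limma called 0 lower, where 0.949% were, with 7 keratins at an unadjusted p under 0.05. Krt16 read 4.54, 4.87 and 4.33 at P7 and rose by 1.08 (SE 0.20, adjusted p = 0.0177). This call was lost without any 1 of the P0 arrays or without P7 replicate 1. Without the 2 arrays that go against their labels, Krt34 and Krt19 were also called, both lower, by -1.72 (SE 0.21, adjusted p = 0.00231) and -0.99 (SE 0.12, adjusted p = 0.00211). In that fit 2.9% of all genes were called higher and 2.75% lower.

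Over the whole interval from E11.5 to P7, Krt16 and Krt80 rose 24.4-fold, Krt6b 20-fold and Krt78 13.2-fold. Their limma adjusted p-values were 2.29e-07, 3.83e-06, 0.000804 and 4.72e-07. The partners Krt1 and Krt10 were both called higher, by 1.86 (SE 0.49) and 1.93 (SE 0.58). Their spread at P7 was wide, where Krt10 read 3.34, 3.73 and 0.88. The 2 probes of Krt1 had means of 0.61 and 0.48 at E11.5 and of 1.45 and 3.36 at P7, so its gene mean is uncertain. The count of 19 calls fell to 7 without E11.5 replicate 1, 9 without E11.5 replicate 2, and 11, 8 and 12 without P7 replicates 1, 2 and 3. It was 27, of which 26 higher, without the 2 arrays that go against their labels. In that fit 21.5% of all genes were called higher and 19% lower.

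At P7, Keap1-/- esophagi had lost most of the simple keratin signal. They were also lower in a group of hair keratins and higher in Krt84, Krt16 and Krt14. Of 33 keratins tested, 4 were called higher and 9 lower against wild type, where 15.4% of all 19246 genes were higher and 18% lower. With median centring in place of loess the split was 12 higher and 10 lower. That scaling moved the median of all genes by 0.14, and the shares above are those with loess. The genotypes were first checked on their own genes. Nfe2l2, which encodes Nrf2, read -0.23, 0.00 and -0.55 in wild type and -3.92, -3.92 and -3.82 in Nrf2-/-, and Nqo1, a target of Nrf2, read 3.95, 3.99 and 4.18 in Keap1-/- against 0.45, -1.06 and -1.96 in wild type. The probe for Keap1 mRNA read -0.26, 0.22 and 0.64 in Keap1-/- and 0.54, 1.00 and 0.42 in wild type, and these groups overlap.

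Krt19, which simple epithelia and some basal cells make, read 2.57, 2.60 and 2.43 in wild type at P7 and -4.10, -3.71 and -3.69 in Keap1-/-. The 3 Keap1-/- esophagi were thus far below every other P7 array, since Nrf2-/-Keap1-/- read 2.89, 3.09 and 3.01. Krt19 fell by 6.37 on the log2 scale, or 82.6-fold (SE 0.13, limma adjusted p = 4.84e-10). Krt7, a keratin of ducts and simple linings, read 3.76, 4.39 and 3.69 in wild type and -0.81, -1.03 and -1.08 in Keap1-/-, 30.2-fold lower (-4.92, SE 0.16, adjusted p = 1.2e-08).

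The partners Krt8 and Krt18 were both lower. Krt8 read 0.93, 0.88 and 0.05 in wild type and -3.12, -3.86 and -3.50 in Keap1-/-, 17.3-fold lower (-4.11, SE 0.27, limma adjusted p = 2.2e-06). Krt18 read -0.32, -2.20 and -2.51 and then -4.33, -4.22 and -3.69, 5.30-fold lower (-2.41, SE 0.57, adjusted p = 0.00864). Krt20 varied most in wild type, at 2.19, -0.15 and -1.87, and its difference of -2.84 had an adjusted p that rounds to 0.05 and lies just above the threshold. Both probes of Krt7 and both of Krt8 showed the fall, with means of 3.41 and 4.48 in wild type and -1.09 and -0.85 in Keap1-/- for Krt7, and of 0.62 and 0.62, and then -3.68 and -3.30, for Krt8. All 5 simple keratins had a negative difference and 4 were called, where 18% of all genes were called lower. Their median was -4.11 against -0.02 over all genes.

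Among hair keratins 4 of 8 tested were called lower and Krt84 was called higher, where 18% of all genes were lower and 15.4% higher. Krt35, an early keratin of the hair cortex, read 2.26, 3.31 and 2.50 in wild type and 0.46, 0.35 and 0.83 in Keap1-/-, 4.42-fold lower (-2.15, SE 0.24, limma adjusted p = 8.95e-05). Krt33a read 1.63, 3.06 and 2.34 and then 0.77, 0.12 and 0.03, 4.10-fold lower (-2.04, SE 0.33, adjusted p = 0.00108). Krt31 and Krt34 were above background on no Keap1-/- array. By the bound on Cy5 signal they were at least 2.60-fold and at least 2.52-fold lower there. The fold from the ratios was 2.5 for Krt34, so the bound is no minimum for that fold. These 4 genes are neighbours on chromosome 11, where the order is Krt33a, Krt33b, Krt34, Krt31, Krt32, Krt35 and Krt36. The neighbours differed among themselves, since Krt32 read 2.47, 3.66 and 3.03 in wild type and 2.64, 3.25 and 3.26 in Keap1-/-, and Krt36 differed by -0.21 (adjusted p = 0.285).

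Krt84, a type II hair keratin also known from the tongue, read 0.47, 0.32 and 0.55 in wild type and 2.09, 3.14 and 3.39 in Keap1-/-, 5.37-fold higher (2.42, SE 0.26, limma adjusted p = 7.98e-05). Every Keap1-/- array was above every wild type array. Its neighbour on chromosome 15, the hair cuticle keratin Krt82, was not well above background on any wild type array and was so on 2 of 3 Keap1-/- arrays. Krt82 was at least 1.67-fold higher by that bound and was not tested.

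Krt16 read 6.38, 6.10 and 6.25 in Keap1-/- and was 3.17-fold higher than in wild type (1.66, SE 0.24, limma adjusted p = 0.000557). Krt14 read 2.52, 3.35 and 2.56 in wild type and 4.04, 3.41 and 3.92 in Keap1-/- (0.98, SE 0.22, adjusted p = 0.00603), and Krt9, a keratin of palm and sole, differed by 0.39 (SE 0.13, adjusted p = 0.0426). Krt9 was above background on 1 of 3 wild type and 2 of 3 Keap1-/- arrays, so its call lies near the background. Krt79, known from the hair canal, was lower by -1.41 (SE 0.46, adjusted p = 0.0354), and its wild type values of 3.17, 1.41 and 1.41 rest on replicate 1 for their spread. Krt15, Krt6b and Krt23 were not called, at -0.22, -0.06 and -0.03, and with median centring in place of loess all 3 lay above 0. No call was made for the esophageal keratins Krt13 and Krt4. Krt4 read 4.14, 5.68 and 5.91 in Keap1-/-, with replicate 1 below every wild type array.

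Markers of other cells moved with these calls, in a comparison where 15.4% of all genes were called higher and 18% lower. Of the mesenchyme markers, 4 of 5 were lower in Keap1-/-, and their mean level ranged from -0.66 to -0.44 against 0.19 to 0.40 in wild type, with all 5 above background. Of 4 smooth muscle markers 3 were lower and Des was higher (0.76), with a mean level of 2.77 to 3.23 against 3.45 to 3.74. Of 5 striated muscle markers Acta1 was higher (0.95) and Myh3 lower (-0.49), with a mean of 5.13 to 5.73 against 4.59 to 5.37, and of the blood markers Hba-a1 was higher (0.64). The epithelial markers Epcam and Cdh1 were 2 of 4 and were lower, and the list's mean level was 3.26 to 3.40 against 3.65 to 4.20. In a list of 4 mesothelium genes added after values were seen, Msln and Upk3b were lower, and the mean level was -2.54 to -1.85 against -1.25 to -0.65. Upk1b, a gene of urothelium and other linings, read 6.15, 7.30 and 6.69 in wild type and 1.23, 0.82 and 0.42 in Keap1-/-. The part of these shifts in the keratin differences was not tested. No other group shared the slide or the scan day of the Keap1-/- arrays, so genotype, slide and scan cannot be told apart there.

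In Nrf2-/-Keap1-/- esophagi the keratins lay near wild type. Limma called 0 of 33 higher and 2 lower, where 0.307% of all genes were higher and 0.12% lower, and 6 keratins had an unadjusted p under 0.05. The 2 were Krt16, at 3.08, 3.81 and 2.74 (-1.36, SE 0.24, adjusted p = 0.0462), and Krt23, at 4.61, 4.80 and 4.79 (-0.81, SE 0.14, adjusted p = 0.0447). Both calls were lost in a fit of these groups alone, with the replicate block, and with most left-out arrays. These genotypes shared a scan day but no slide, so genotype and slide cannot be told apart here.

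Against Nrf2-/-Keap1-/-, Keap1-/- esophagi had 7 keratins called higher and 9 lower, where 15.1% of all genes were higher and 18.3% lower. Under median centring, which moved the median of all genes by 0.06, 11 were higher and 9 lower. These comparisons share the Keap1-/- arrays with the one against wild type, so their values are set side by side and not counted as separate support. Krt19 differed by -6.83 from Nrf2-/-Keap1-/- and by -6.37 from wild type, Krt7 by -4.74 and -4.92, and Krt35 by -2.50 and -2.15. Krt16 differed by 3.03 and 1.66. Krt5, Krt17, Krt23 and Krt6a were called higher against Nrf2-/-Keap1-/- by 0.92, 0.92, 0.78 and 0.44, and were not called against wild type. Krt31 and Krt34 were at least 2.53-fold and 2.00-fold lower.

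Whether the effect of losing Keap1 differed with Nrf2 was tested as the interaction of both genotypes. It was called for 11 of 33 keratins, 3 in the positive and 8 in the negative direction, where 7.13% and 7.98% of all genes were. Under median centring, which moved the median of all genes by 0.08, 7 were positive and 8 negative. With loess the size was -6.71 for Krt19 (SE 0.18, limma adjusted p = 1.15e-08), -4.80 for Krt7 (SE 0.23, adjusted p = 6.15e-07) and -4.29 for Krt8 (SE 0.38, adjusted p = 5.35e-05). For Krt18, which was lower in Keap1-/- than in either other group, the interaction of -2.18 was not called (adjusted p = 0.0942). It was 2.74 for Krt84 and 2.31 for Krt16. Krt79 had -3.32 (SE 0.65, adjusted p = 0.00711), with levels of 2.31, 3.60 and 2.70 in Nrf2-/-Keap1-/- above those of Nrf2-/- at 1.24, 0.98 and 0.67. The interaction and the comparison with Nrf2-/-Keap1-/- both rest on the Keap1-/- arrays. No other group shared their slide or scan day, so genotype, slide and scan cannot be told apart in either.

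**Figure D3:**
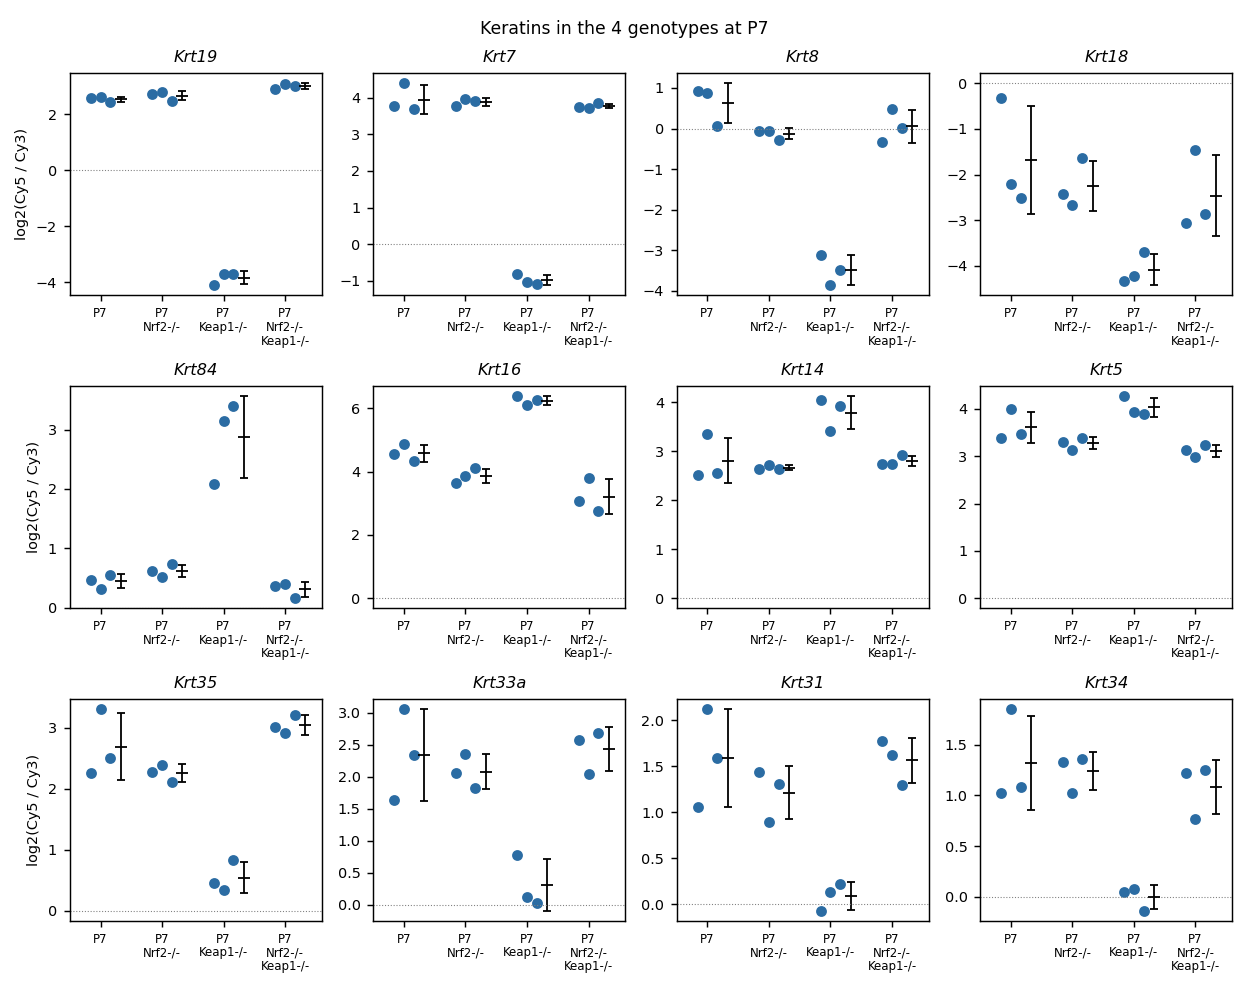
Log2 ratio of Cy5 to Cy3 (vertical axes) of 12 keratins in the 4 genotypes at P7 (horizontal axes); points are arrays and black bars the mean and SD of 3. The Keap1-/- arrays are apart from the other genotypes for Krt19, Krt7, Krt8, Krt84, Krt16 and Krt35, and the Nrf2-/-Keap1-/- arrays lie beside wild type for Krt19, at 2.89 to 3.09 against 2.43 to 2.60.

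Loss of Nrf2 alone at P7 gave no call among 33 keratins by limma, where 0.0156% of all genes were called, and 3 keratins had an unadjusted p under 0.05. These were Krt8 (-0.75, SE 0.27), Krt16 (-0.72, SE 0.24) and Krt79 (-1.03, SE 0.46). The median keratin difference was -0.25, with 28 of 33 below 0, against a median of 0 over all genes. All 4 epithelial markers also lay lower (median -0.36) and all 5 mesenchyme markers higher (median 0.2), with 0 called in either list. The part of these shifts in the keratin differences was not tested. A p that misses the threshold does not show that the levels were the same. Nrf2-/- and wild type arrays at P7 shared a scan day but no slide, so genotype and slide cannot be told apart.

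Promoters are shown for some of the keratins that moved together in Keap1-/-. None was found for Krt19, Krt16, Krt35 or Krt33a, which were also called there. Each is given as the 100 bases before the transcription start in RefSeq (GRCm38.p6), 5′ to 3′ on the strand of the gene. Capitals mark the TATA box TATAAA or the GC box GGGCGG, searched on both strands. Krt7 lies at chr15:101412303-101412402 and Krt18 at chr15:102028116-102028215, both on the plus strand. Krt8, next to Krt18, lies at chr15:102004343-102004442, Krt34 at chr11:100041555-100041654 and Krt31 at chr11:100050552-100050651, all on the minus strand. Krt84, which moved the other way, lies at chr15:101532821-101532920 on the minus strand.
Krt7: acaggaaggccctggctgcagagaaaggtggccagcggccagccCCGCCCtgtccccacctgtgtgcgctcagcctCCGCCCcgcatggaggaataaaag
Krt8: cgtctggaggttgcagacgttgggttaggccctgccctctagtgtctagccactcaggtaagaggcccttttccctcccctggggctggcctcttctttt
Krt18: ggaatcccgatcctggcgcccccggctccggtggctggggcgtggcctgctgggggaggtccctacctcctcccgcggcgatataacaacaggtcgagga
Krt31: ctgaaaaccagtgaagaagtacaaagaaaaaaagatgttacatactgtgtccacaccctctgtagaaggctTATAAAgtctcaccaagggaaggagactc
Krt34: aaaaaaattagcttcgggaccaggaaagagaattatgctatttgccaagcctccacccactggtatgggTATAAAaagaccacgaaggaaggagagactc
Krt84: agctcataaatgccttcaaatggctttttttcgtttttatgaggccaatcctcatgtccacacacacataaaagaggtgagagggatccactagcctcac
The hair keratins Krt31 and Krt34 have a TATA box in this window, and Krt7 has 2 GC boxes. The G and C content is 67% for Krt7, 70% for Krt18 and 59% for Krt8, and 41%, 44% and 43% for Krt31, Krt34 and Krt84. The 31 promoters found for the family belong to 30 genes, with A830036E02Rik counted among them. They do not cover the whole family. Of these 31, counted as keratin promoters here, 13 (41.9%) hold TATAAA in these 100 bases, where 5.54% of all 32544 promoters do. The GC box is in 6.45% of the keratin promoters and 24.9% of all. The motif TGANTCA, bound by AP-1, is in 3.23% and 2.74%, and TGACNNNGC, the core through which Nrf2 acts, in 6.45% and 4.84%. In the longer promoter window, which runs past the start site, the last motif is in 22.6% of the keratin promoters and 12.4% of all. A match describes the letters and is not a binding site.

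Adult epithelium lacked most of the simple keratin signal of the P7 esophagus and was higher in Krt76, Krt79 and 4 of 9 hair keratins tested. Of 35 keratins tested in wild type, 9 were called higher and 10 lower, where 21.7% of all 19577 genes were higher and 24.2% lower. The higher calls depended on the background. With each spot's own local background 2 were higher, Krt76 at 1.93 and Krt32 at 2.08, and 13 lower, and Krt79, Krt80, Krt36 and Krt13 lost their calls at 0.44, 0.03, 0.46 and 0.46. With outlier-marked spots left out, 20 keratins were tested, and 6 were higher and 3 lower. The median keratin difference was 0.03 against 0.01 over all genes. All 5 simple keratins were called lower, with a median of -4.76.

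Krt19 read -3.92, -3.69 and -3.96 in adults, 83.9-fold lower than at P7 (-6.39, SE 0.13, limma adjusted p = 1.41e-10). Krt7 read -2.13, -1.60 and -1.89, 56.5-fold lower (-5.82, SE 0.19, adjusted p = 4.28e-09). Krt8 read -4.27, -4.38 and -3.78, 27.2-fold lower (-4.76, SE 0.25, adjusted p = 1.24e-07). Every adult array lay below every P7 array for these 3 genes. Krt20 fell by 4.17 and Krt18 by 1.55 on the log2 scale (adjusted p = 0.000776 and 0.0251), and Krt18 lost its call under several other settings.

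Of 5 stress and appendage keratins, 3 were called lower, where 24.2% of all genes were. Krt16 read 2.23, 2.04 and 2.03 in adults against 4.54, 4.87 and 4.33 at P7, 5.57-fold lower (-2.48, SE 0.33, limma adjusted p = 0.000122). Krt6b read 2.13, 2.95 and 2.71 against 4.85, 5.36 and 4.69, 5.16-fold lower (-2.37, SE 0.28, adjusted p = 5.09e-05). Its close relative Krt6a was not called, at 2.67, 3.04 and 3.20 against 3.30, 3.65 and 3.06 (adjusted p = 0.111), so the Krt6 genes differed in size of change. Krt17 fell by 0.73 (adjusted p = 0.0201). Krt75 of the hair companion layer was higher by 1.24 and was not called (adjusted p = 0.103).

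Krt76, a type II keratin of oral epithelia, read 0.07, 0.44 and 0.07 at P7 and 4.23, 4.18 and 3.76 in adults. This was the largest rise among the keratins tested, 14.5-fold (3.86, SE 0.18, limma adjusted p = 5.91e-08). The hair cuticle keratin Krt32 read 5.58, 5.75 and 5.69 in adults, 6.14-fold higher (2.62, SE 0.24, adjusted p = 8.36e-06). Krt79 read 4.30, 4.19 and 4.21, 4.71-fold higher (2.24, SE 0.38, adjusted p = 0.000597).

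Krt36, a hair keratin that tongue papillae also make, read 0.20, 0.61 and 0.56 at P7 and 2.01, 2.10 and 2.52 in adults (1.75, SE 0.15, limma adjusted p = 4.76e-06), and Krt35 rose by 1.1 (SE 0.23, adjusted p = 0.00202). Krt34 was above background on no adult array and at least 2.27-fold lower there. The chromosome 11 hair keratins thus moved in both directions. Krt13 rose by 0.75 (SE 0.19, adjusted p = 0.00694), Krt80 by 0.86, Krt84 by 0.58 and Krt9 by 0.44, while Krt35 and Krt84 lay below 0 with each spot's own local background. Krt9 was above background on 1 of 3 P7 and 2 of 3 adult arrays. The basal keratins Krt5, Krt14 and Krt15 and the esophageal Krt4 were not called, with Krt4 at 5.50, 6.22 and 6.45 against 5.72, 6.16 and 5.80.

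In Nrf2-/- mice, 10 of 35 keratins were called higher in adults and 11 lower, where 27% and 28% of all genes were. Under median centring, which moved the median of all genes by 0.26, 16 were higher and 8 lower. The Nrf2-/- arrays at P7 and in adults share no slide, scan day or software version, so age cannot be told apart from these. In wild type, 2 of 3 adult arrays share the scan day of the P7 arrays, and with these alone the difference was -6.34 for Krt19, -5.81 for Krt7, -4.95 for Krt8, -2.44 for Krt16, 4.01 for Krt76 and 2.25 for Krt79. No wild type adult array shares a slide with P7 wild type. From P7 to adult in Nrf2-/- mice, the differences were -6.30 for Krt19, -5.88 for Krt7, -3.65 for Krt8 and -1.09 for Krt16. They were 3.96 for Krt76, 2.93 for Krt32, 3.78 for Krt79 and 2.58 for Krt36. The difference between genotypes in this change was called for 0 of 35 keratins by limma, where 0.0919% of all genes were called, and 8 had an unadjusted p under 0.05. The sizes among these 8 ran from -0.65 for Krt13 to 1.54 for Krt79.

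In adult epithelium the genotypes gave 0 calls of 35 by limma, where 1.3% of all genes were called, and 5 keratins had an unadjusted p under 0.05. Under median centring, 12 were called higher and 1 lower, and with each spot's own local background 10 higher and 2 lower. These settings moved the median of all genes by 0.34 and 0.09, and the share of 1.3% belongs to neither of them. The smallest p was that of Krt36, at 2.90, 2.92 and 2.85 in Nrf2-/- against 2.01, 2.10 and 2.52 in wild type (0.68, SE 0.15, adjusted p = 0.0591). Krt6b read 2.99, 3.69 and 4.07 against 2.13, 2.95 and 2.71 (0.98, SE 0.28, adjusted p = 0.115). Within the scan day that held 2 Nrf2-/- arrays and 1 wild type array, these differences were 0.39 and 0.62. The adult genotypes shared no slide.

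**Figure D4:**
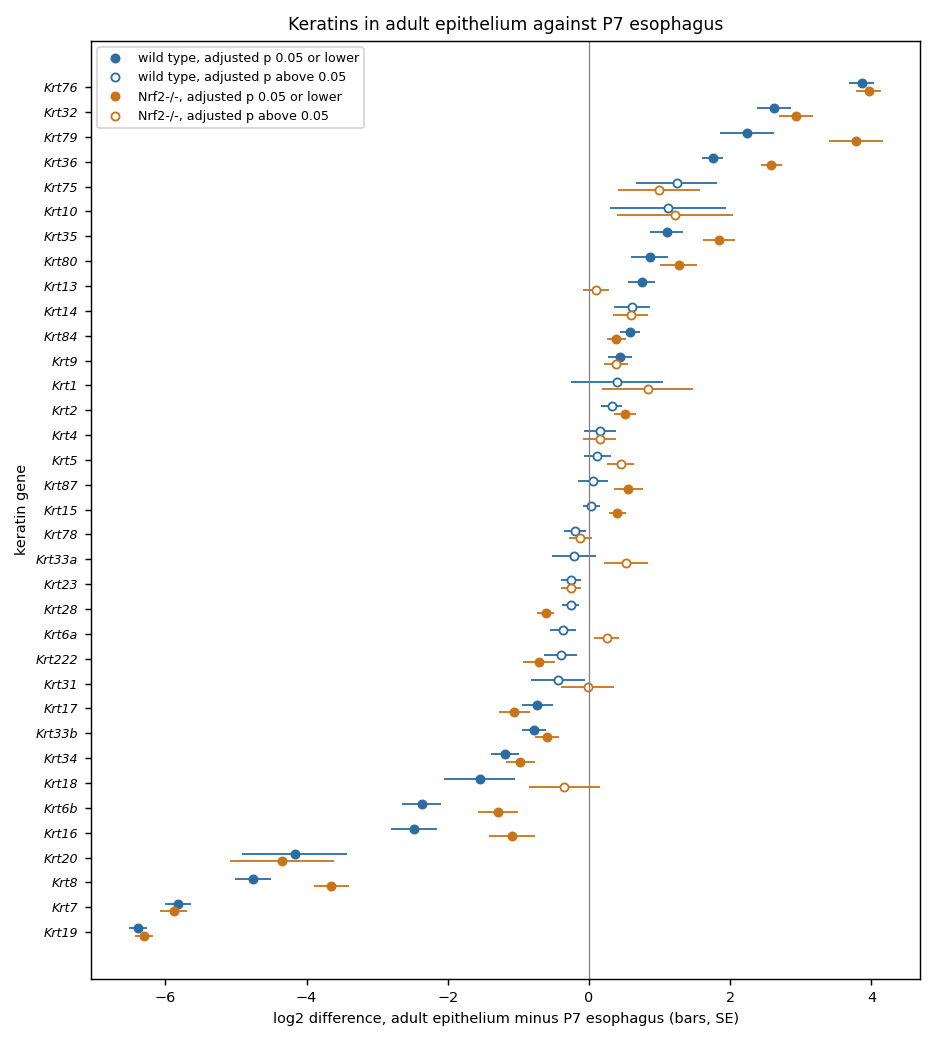
Log2 difference of adult epithelium minus P7 esophagus with its SE (horizontal axis) for 35 keratins (vertical axis) in wild type and Nrf2-/- mice; filled points have an adjusted p of 0.05 or lower. Krt19 lies near the left end in both genotypes, at -6.39 and -6.30, and Krt76 near the right end, at 3.86 and 3.96.

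Markers of most other tissues were also lower in the adult samples, where 24.2% of all genes were called lower and 21.7% higher. All 5 mesenchyme markers were called lower than at P7, with a mean level of -1.66 to -1.42 against 0.19 to 0.40, and all 5 striated muscle markers, with 0.80 to 1.87 against 4.59 to 5.37, where Myh3 was at background. The mean of the mesothelium genes was -3.23 to -2.56, with Lrrn4 at background. The epithelial list had a mean level of 4.18 to 4.26 against 3.65 to 4.20, with Perp (1.63) and Trp63 (0.66) called higher and Epcam (-0.81) lower. Smooth muscle markers (3 of 4), neuron and glia markers (3 of 3 tested) and blood markers (2 of 2) were also called lower. The airway list went the other way in its mean level, at 0.77 to 0.98 against 0 to 0.24. Of its 3 genes tested, 1 was called higher (3.81) and 1 lower, and 3 of its 4 genes were at background in adults. The part of all these markers in the keratin differences was not tested.

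The epidermal partners Krt1 and Krt10 differed between replicates of a group more than between groups at P7. Krt10 read 3.34, 3.73 and 0.88 in wild type, 3.88, 1.1 and 0.85 in Nrf2-/-, 0.72, 1.80 and 2.01 in Keap1-/-, and 0.92, 3.70 and 1.28 in Nrf2-/-Keap1-/-. Krt1 read 2.94, 3.28 and 1.00, then 2.96, 1.11 and 0.44, then 0.64, 2.54 and 2.76, and then 0.66, 3.22 and 1.95, so the same arrays were high for both partners. Flg, the filaggrin that bundles keratins in the epidermis, was high on those arrays too, at 2.96, 3.35 and 0.61 in wild type and 0.04, 3.48 and 3.53 in Keap1-/-. In adults the spread was narrower, with Krt10 at 3.19, 3.93 and 4.18 and Krt1 at 2.36, 2.95 and 3.1.

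Of the 8 keratins with 2 probes, Krt33b and Krt1 are uncertain as gene means. For Krt33b the probe printed above, from transcript base 456, read 0.35 ± 0.17 (SD, n = 3) in wild type at P7 and 2.74 ± 0.79 in Keap1-/-. The probe from base 1415 read 2.29 ± 0.64 and 1.08 ± 0.05, so the probes moved in opposite directions. In adults they read 0.95 ± 0.15 and 0.12 ± 0.15. The mean of both, which was called lower in adults by -0.78, therefore stands for neither. For Krt1, the probes read 1.45 ± 0.43 and 3.36 ± 2.41 in wild type at P7, and 0.35 ± 0.06 and 3.61 ± 2.37 in Keap1-/-. The first of these probes lies on the plus strand of chromosome 15 while the other lies on the minus strand. Which of them follows Krt1 mRNA was not tested.

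**Figure D5:**
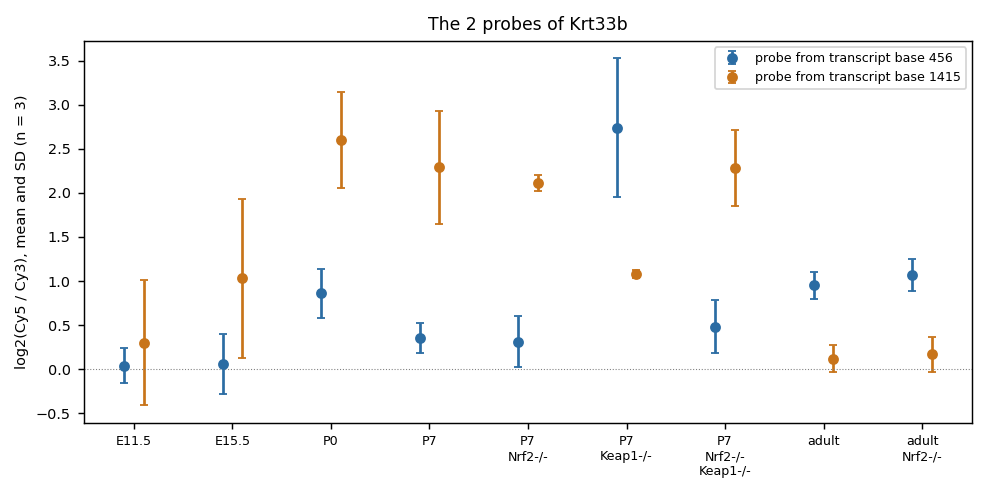
Log2 ratio of Cy5 to Cy3 (vertical axis, mean and SD of 3 arrays) for the 2 probes of Krt33b in the 9 groups (horizontal axis). In Keap1-/- at P7 the probe from base 456 is the higher, at 2.74 against 1.08, and in the other whole-esophagus groups from P0 on it is the lower.

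Genes that work with keratins were read from lists. Of 12 genes for keratin-binding and cornification proteins, 10 were called higher and 0 lower from E11.5 to P7 by limma, where 16.8% and 13.4% of all genes were, with all 12 at an unadjusted p under 0.05. They included the plakin Ppl (3.04), the transglutaminases Tgm1 (3.28) and Tgm3 (3.23), and the desmosome protein Dsp (1.79). In Keap1-/- at P7, where 15.4% of all genes were higher and 18% lower, 4 were higher and 1 lower, the lower being Tchh, trichohyalin of the inner root sheath (-1.05). In wild type adults, where 21.7% of all genes were higher and 24.2% lower, 7 were higher and 1, again Tchh, was lower (-0.54).

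Of the regulators of keratin genes tested, 9 of 11 were called higher and Lef1 lower in wild type adults, where 21.7% of all genes were higher and 24.2% lower. Among the higher were Ovol1 (2.66), Dlx3 (2.52), Grhl1 (2.26) and Pax9 (1.84). In Keap1-/- at P7, where these shares were 15.4% and 18%, 3 of 10 were higher, namely Msx2 (1.37), Ovol1 (1.36) and Klf4 (0.82), and Sox2 was lower (-0.72). Of 43 keratin-associated proteins of hair on the array, 17 were tested in the ages, and 7 were higher in wild type adults, against 21.7% of all genes, from Krtap5-1 (0.37) to Krtap12-1 (2.97), with 0 lower and 9 at an unadjusted p under 0.05. In Keap1-/- at P7 limma called 0 of 16, with 2 at an unadjusted p under 0.05.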

How the data were processed

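Total RNA of esophagi (Cy5) was hybridized against Universal Mouse Reference RNA (Cy3) on 2-colour Agilent arrays. The scanner files deposited by the authors hold spot mean intensities and local background median intensities. The series matrix deposited by the authors holds log10 ratios of Cy5 to Cy3, used as an alternative. The authors' notes name Agilent Feature Extraction 9.1. The files come from 11 slides and 4 scan days.

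Intensities were corrected by normexp (offset 50), with local backgrounds over 5 times the array median replaced by that median and those spots left out, and then loess-normalized without control spots. Probes were averaged per gene on the log2 scale. Of 41174 probes, 26918 were named through RefSeq. Fits were made with limma 3.58.1 and statmod 1.5.0 under R 4.3.3, on 12 arrays each in 3 fits, with Benjamini-Hochberg adjustment over all genes tested, and were tested on simulated data.

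The keratin rule, lists and tests were chosen with earlier results of these data known. Named are the keratins fixed by role and the 3 largest changes each way among called keratins. The labels call replicates biological and do not say whether each is 1 mouse or a pool, and p-values measure the spread between them. The number of arrays limits precision. Same-numbered replicates deviated together (every correlation over 0.1) from P0 to P7 (0.12 to 0.36), from E11.5 to P7 (0.12 to 0.19) and for Keap1-/- against Nrf2-/-Keap1-/- (0.12 to 0.36), a pairing that comes from the values alone. With the replicate block, the calls from P0 to P7 stayed at 1, those from E11.5 to P7 went from 19 to 21, and those against Nrf2-/-Keap1-/- from 16 to 15.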

Additional observations from a re-analysis of the deposited data

Results flagged for a closer look

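The effect of losing Keap1 at P7 differed between mice with and without Nrf2 for 11 of 33 keratins, by limma's interaction term with Benjamini-Hochberg adjustment. The differences, all on the log2 scale, were -6.71 for Krt19, -4.80 for Krt7 and -4.29 for Krt8 among simple keratins. They were -2.93 for Krt35, -2.39 for Krt33a, -1.85 for Krt31 and -1.17 for Krt34 among the hair keratins of chromosome 11, and -3.32 for Krt79. They were 2.74 for Krt84, 2.31 for Krt16 and 0.90 for Krt13. The adjusted p was 0.0497 for Krt13, whose call held in 1 of 12 fits without a single array, and 0.0263 for Krt34, whose call held in 8 of 12. The other 9 calls held in all 12. Of all genes, 7.13% were called in the positive and 7.98% in the negative direction. No other group shared the slide or scan day of the Keap1-/- arrays, so genotype, slide and scan cannot be told apart here.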

How the results depend on the processing

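Counts of called keratins moved with the treatment of outlier-marked spots, the local background and the scaling. With outlier-marked spots left out, 19 to 21 keratins were tested, so fewer could be called, and calls were 9 among the 4 ages, 7 from E15.5 to P0, 0 from P0 to P7, 8 over E11.5 to P7, 9 from P7 to adult in wild type, 8 for Keap1-/- against wild type, 1 for Nrf2-/-Keap1-/- against wild type, 8 for Keap1-/- against Nrf2-/-Keap1-/- and 7 for the interaction. With each spot's own local background they were 7 among the ages, 6 from E15.5 to P0, 3 for the Nrf2 effect between ages and 12 for Nrf2-/- adults, and from P7 to adult in wild type 2 higher and 13 lower, 11 of them shared with the 19 reported. With median centring in place of loess they were 9 from E11.5 to P7, 22 for Keap1-/- against wild type (12 higher, 10 lower), 0 for Nrf2-/-Keap1-/- and 13 for Nrf2-/- adults, and this scaling moved the median of all genes by 0.14 in Keap1-/- against wild type, 0.34 in Nrf2-/- adults, 0.26 from P7 to adult in Nrf2-/- and 0.29 in the Nrf2 effect between ages. With the series matrix ratios the median moved by 0.13 from P7 to adult in wild type and by -0.11 in the Nrf2 effect between ages. Calls were 0 from P0 to P7 and 0 for Nrf2-/-Keap1-/- with these ratios, 0 for the latter without background correction, 3 from P0 to P7 and 0 for Nrf2-/-Keap1-/- with only the groups compared, and 12 from E11.5 to P7 with slide as a random block. Without E11.5 replicate 3 and E15.5 replicate 1 they were 26 among the ages, 18 from E11.5 to E15.5 and 3 from P0 to P7. The shares of all genes called in that fit were 45.6%, 13.8% and 5.65%.

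Leaving out 1 array at a time gave 11 to 25 calls among the ages, 0 to 0 from E11.5 to E15.5, 9 to 13 from E15.5 to P0, 0 to 3 from P0 to P7, 7 to 25 over E11.5 to P7, 16 to 20 and 17 to 24 from P7 to adult in wild type and Nrf2-/-, 0 to 0 for the Nrf2 effect between ages and for Nrf2-/- at P7, 11 to 17 for Keap1-/- against wild type, 0 to 2 for Nrf2-/-Keap1-/-, 14 to 18 against Nrf2-/-Keap1-/-, 9 to 13 for the interaction and 0 to 1 for Nrf2-/- adults. The replicate block, in which same-numbered samples are paired, gave 0 for Nrf2-/-Keap1-/- against wild type in place of 2, 12 for Keap1-/- against wild type and 9 for the interaction. Under it Krt18 and Krt6a lost their calls for Keap1-/- against Nrf2-/-Keap1-/- (limma adjusted p = 0.0799 and 0.0611), Krt33b gained one (0.53, adjusted p = 0.0339), and from E11.5 to P7 Krt4 (4.16, adjusted p = 0.0424) and Krt33a (1.78, adjusted p = 0.0248) gained one.

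The sign turned in 9 cases, and the cause was not tested. With the brightest probe, Krt33b from P7 to adult was 0.60 in wild type and 0.76 in Nrf2-/-. With each spot's own background, Krt35 was -0.68 and Krt84 -0.04 from P7 to adult in wild type. With median centring, Krt23 was 0.83 and Krt78 0.98 from P7 to adult in Nrf2-/-, and Krt15 was 0.45, Krt6b 0.33 and Krt23 0.47 in Keap1-/- against wild type. A fall below background has only a bound.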
